A study of Rattus norvegicus with 5 samples.

Results

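The genes of DNA replication and mitosis were followed as a set of 47 named genes across normal rat liver and 4 rat hepatocellular carcinoma lines. Probes were taken when their platform symbol was a member or an older synonym of it, such as Cdc2 for Cdk1. Of the 47 members, 23 act mainly in S phase and 24 in mitosis, and 39 of them had a named probe (53 probes in all, out of 16865 probes with 1 named gene).

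RNA from each source was labelled and hybridised to 1 single-colour whole-genome array. The liver came from an untreated male SD rat of 50 weeks. The lines C5F and C6 (low-metastatic) and N1 and L2 (high-metastatic) were established from liver tumours of male F344 rats of 31 weeks, all given N-nitrosomorpholine and diethylnitrosamine. Every line therefore also differs from the liver in strain, age and carcinogen exposure, and in being a cell line rather than a whole tissue, and these cannot be told apart. The liver and each line are 1 array each, without a repeat among these samples.

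Before S phase, a ring of Mcm proteins is loaded onto origins, and at the fork polymerases, the clamp Pcna and the flap nuclease Fen1 copy the strands with nucleotides from ribonucleotide reductase. In mitosis, cyclin B with Cdk1 and the Aurora and polo kinases build the spindle, the checkpoint holds back Cdc20 until every chromosome is attached, and Cdc20 then activates the anaphase-promoting complex. Most hepatocytes of adult liver are out of the cycle, and transcripts of these genes are commonly used as markers of dividing cells. Many S phase genes carry E2F sites and many mitotic genes carry a cell cycle homology region, the CHR, near a CCAAT box, elements through which the DREAM complex, B-Myb and Foxm1 act.

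RefSeq promoter windows (GRCr8, 250 bases before to 50 after the annotated start) were found for 39 members, 20 of S phase and 19 of mitosis. Windows were searched on both strands for the CHR (TTTGAA), the CCAAT box (CCAAT) and 3 spellings of the E2F site (TTTCGCGC, TTTGGCGC and TTTCCCGC). The CHR letters stood in 14 of 19 mitotic promoters (73.7%) and in 1 of 20 S phase promoters (5%, Mcm2), against 3231 of 19005 protein-coding promoters (17%). E2F letters stood in 12 of 20 S phase promoters (60%) and in 1 of 19 mitotic promoters (5.26%, Cdk1), against 445 of 19005 (2.34%). CCAAT boxes stood in 12 of 20 S phase promoters (60%) and 15 of 19 mitotic ones (78.9%), against 7299 of 19005 (38.4%). A match is a run of letters and not a measured site, and no binding was measured here.

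The S phase promoters shown are those of members described in full below with a match in the 150 bases before the start, and Mcm7, which was chosen after its sequence was seen because its E2F and CCAAT letters overlap. They are Mcm2 at chr4:122918095-122918244 on the minus strand, Gmnn at chr17:40729684-40729833 on the plus strand, Pola1 at chrX:62342356-62342505 on the minus strand and Mcm7 at chr12:22163179-22163328 on the minus strand. All are written 5′ to 3′ on the strand of the gene, with letters of any searched motif, on either strand, in capitals.
Mcm2: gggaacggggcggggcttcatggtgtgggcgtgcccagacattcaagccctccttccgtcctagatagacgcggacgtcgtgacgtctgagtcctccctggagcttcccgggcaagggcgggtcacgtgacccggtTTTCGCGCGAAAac
Gmnn: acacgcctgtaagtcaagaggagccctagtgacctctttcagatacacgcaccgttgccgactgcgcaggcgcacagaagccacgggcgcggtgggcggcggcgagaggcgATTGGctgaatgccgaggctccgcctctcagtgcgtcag
Pola1: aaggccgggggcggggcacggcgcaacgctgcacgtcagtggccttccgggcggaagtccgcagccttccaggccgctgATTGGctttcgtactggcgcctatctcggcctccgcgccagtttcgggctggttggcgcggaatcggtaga
Mcm7: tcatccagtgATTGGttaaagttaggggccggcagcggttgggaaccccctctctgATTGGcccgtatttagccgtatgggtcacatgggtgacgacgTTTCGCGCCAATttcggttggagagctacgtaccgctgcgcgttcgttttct

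In Mcm2 the capitals are an E2F site read on both strands, its copies overlapping, directly before the start. In Gmnn and Pola1 the capitals are a CCAAT box on the opposite strand, ATTGG, and the E2F letters of both lie outside these 150 bases. In Mcm7 the last base of an E2F site is the first base of a CCAAT box.

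The mitotic promoters shown follow the same rule, with Mki67 added after its sequence was seen because its CHR and CCAAT box overlap. They are Cdk1 at chr20:19265143-19265292 on the plus strand, Cdc20 at chr5:137255800-137255949 on the minus strand, Cenpa at chr6:31431553-31431702 on the minus strand, Cenpf at chr13:103760887-103761036 on the minus strand and Mki67 at chr1:199952594-199952743 on the minus strand.
Cdk1: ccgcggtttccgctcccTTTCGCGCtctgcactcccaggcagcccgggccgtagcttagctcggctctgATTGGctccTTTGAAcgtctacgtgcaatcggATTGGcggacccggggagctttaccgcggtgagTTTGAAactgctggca
Cdc20: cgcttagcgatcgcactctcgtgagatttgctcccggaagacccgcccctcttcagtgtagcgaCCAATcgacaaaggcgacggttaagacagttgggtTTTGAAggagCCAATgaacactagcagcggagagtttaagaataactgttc
Cenpa: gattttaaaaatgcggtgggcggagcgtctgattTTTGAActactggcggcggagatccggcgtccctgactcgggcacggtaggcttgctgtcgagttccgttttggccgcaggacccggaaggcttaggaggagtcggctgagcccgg
Cenpf: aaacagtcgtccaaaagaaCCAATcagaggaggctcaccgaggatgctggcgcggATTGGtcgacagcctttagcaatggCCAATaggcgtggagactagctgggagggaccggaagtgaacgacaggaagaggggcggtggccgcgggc
Mki67: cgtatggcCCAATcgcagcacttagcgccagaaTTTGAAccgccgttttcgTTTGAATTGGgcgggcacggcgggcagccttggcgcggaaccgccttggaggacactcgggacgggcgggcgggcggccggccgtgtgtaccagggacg

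Cdk1 held 2 CHRs, 2 CCAAT boxes on the opposite strand and an E2F site within 150 bases. Cdc20 held 1 CHR between 2 CCAAT boxes. Cenpa held a CHR alone and Cenpf CCAAT boxes alone within these bases. In Mki67 the second CHR shared its final base with a CCAAT box on the opposite strand. The plot of motif distances shows all 39 promoters.

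**Figure D1:**
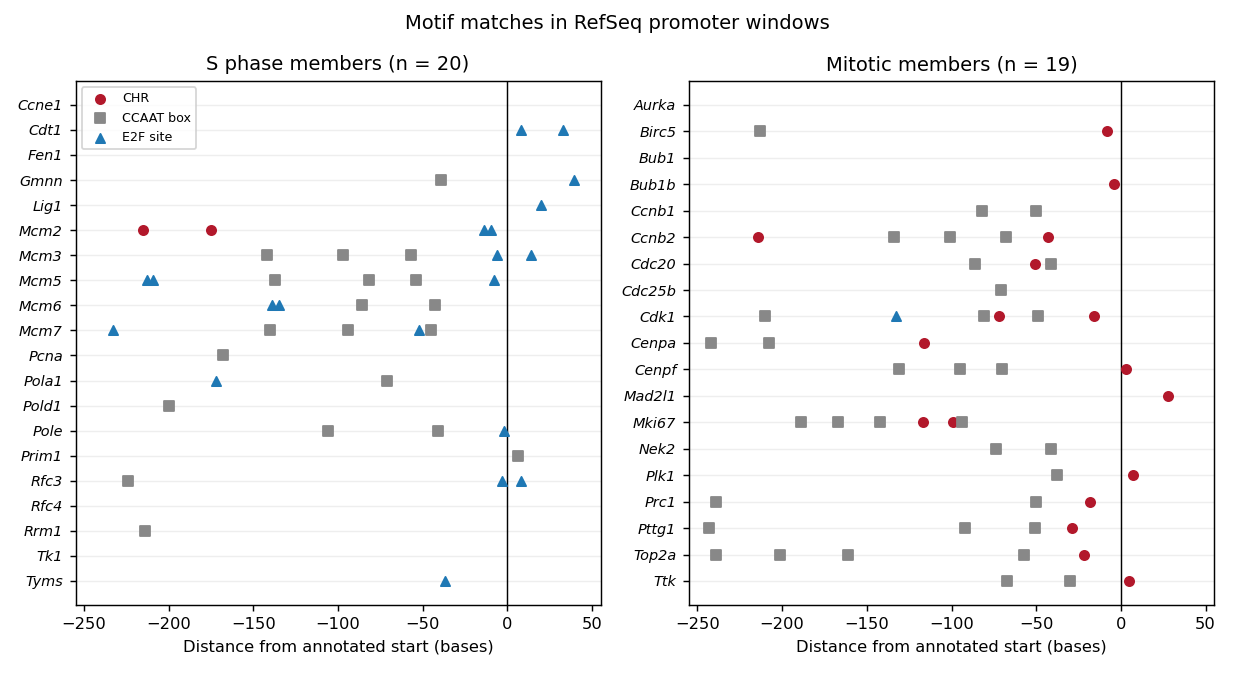
Matches to the CHR (circles), the CCAAT box (squares) and the E2F site (triangles) in 20 S phase (left) and 19 mitotic (right) RefSeq promoters, by distance in bases from the annotated start (vertical line). CHR matches lie in 14 mitotic promoters and 1 S phase promoter, and E2F matches in 12 S phase promoters and 1 mitotic promoter.

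Values are background-subtracted spot intensities, quantile normalised between arrays and given as normalised signal in arbitrary units, so that a signal compares arrays for 1 probe and not 1 probe with another. A spot is called near background by the scanner software when it does not stand above local background. Between 30.6% and 39.2% of the 33849 discovery probes stood above background per array. The liver array carried the markers of liver, with 7 of 8 hepatocyte markers above background, and Alb, Cps1 and Cyp2e1 were near background in every line with a usable spot. Hnf4a, a hepatocyte transcription factor, stood above background in all 4 lines (22.7 to 42.6, against 134 in liver). Apoa1 at 1041, Tf at 478, Ttr at 419 and Ahsg at 16.5 stood above background in C5F and near it in the other 3 lines. Summed over the list, hepatocyte markers read 32861 in liver, 2002 in C5F and 46.9 to 55.7 in the other 3 lines. Macrophage markers read 3374 in liver and 52.6 to 77.3 in the lines, and endothelial markers 289 and 24.4 to 29.0. The lymphocyte list read 75.4 in liver and 44.8 to 58.9 in the lines. The stellate list read 514 in liver and 5.07 to 188 in the lines, and the cholangiocyte list 53.4 and 8.60 to 2291, but these ranges follow missing spots, since sums leave out unusable ones. In L2 the stellate sum held only Lrat and Pdgfrb, both near background, while Col1a1 read 188 in liver, 137 in C5F and 180 in N1. In N1 the cholangiocyte sum held only Sox9, near background, and Krt19 had no usable spot in liver or N1. The hepatocyte, endothelial and lymphocyte sums are uneven too. In liver they leave out Apoa1, Pecam1 and Cd79b, and in C5F Cyp2e1 and Cd3e. Pecam1 alone read 16.3 to 21.1 in the lines. The liver RNA thus held transcripts of several cell types, and their part in the values below was not tested. In a bulk sample, fewer dividing cells and less of a transcript per cell cannot be told apart.

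Against liver, the replication and mitosis genes were higher in the carcinoma lines, in both phases and in nearly every role. Of 24 members that could be tested, 21 rose and 0 fell (limma, adjusted p under 0.05 over all 11949 probes tested), 11 of 13 of S phase and 10 of 11 of mitosis. Over all probes, 9.01% were called higher and 9.38% lower. All 24 differences were positive, and the 3 that missed the threshold were Lig1, Pola1 and Cenpa. Members near background in liver passed the filter through the lines where they were high, so their calls were favoured by the filter. Of the 12 members above background in liver, 11 rose, against 3.37% of the 8438 such probes. The error of each value is the spread between the lines of a class, and the lone liver is assumed to vary likewise. With any 1 line left out the number of calls fell to 0 (without C5F or C6) or 6 (without N1 or L2), although each tested member still had a positive difference.

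The remaining members are accounted for as follows. Mcm3, Pole, Rfc3, Rfc4, Cdc6, Cdt1, Ccnb2 and Tpx2 had no named probe here. Prim1 (primase), Tyms (thymidylate synthase), Cdc25b (a phosphatase that activates Cdk1), Nek2 (a centrosome kinase) and Ttk (a checkpoint kinase) were near background on all 5 arrays and did not pass the filter. Mcm7, Fen1, Cdk1, Birc5, Prc1 and Mad2l1 had no usable liver spot on their brightest probe, and Aurkb, Bub1b, Plk1 and Pttg1 had too few usable line spots. Of the 34 members that passed the filter, 24 were therefore tested against liver.

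**Figure D2:**
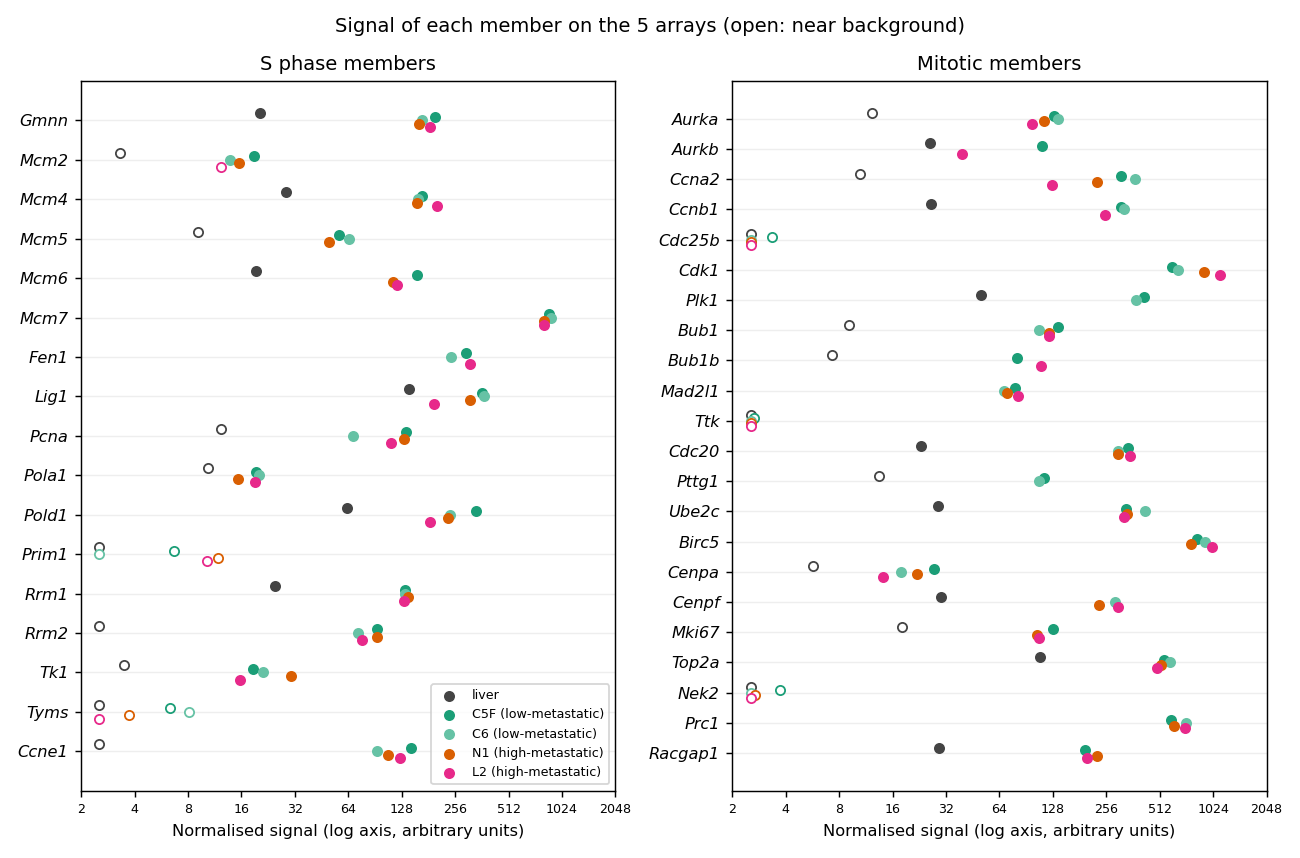
Normalised signal (log axis, arbitrary units) of the brightest probe of each of the 39 members on the array, S phase left and mitotic right, with 1 point per array. Open points are near background and a missing point had no usable spot. For Cdc20 the 4 lines sit between 297 and 350 and liver at 23.3, and for Lig1 the L2 line at 196 approaches liver at 140.

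Among the licensing genes, which load and restrain the replicative helicase, all 5 tested members rose. Gmnn, geminin, which blocks a second round of licensing, gave a signal of 20.4 in liver, 197 and 166 in C5F and C6, and 161 and 186 in N1 and L2. All 4 lines stood far above liver and close together, a difference of 3.11 ± 0.23 on the log2 scale (SE, limma adjusted p = 0.0125), or 8.66-fold. Mcm2, a helicase subunit, stood close to background, with 3.32 in liver, 18.8 and 13.8 in C5F and C6, and 15.5 and 12.3 in N1 and L2. Its liver and L2 spots were near background, so the 3 other lines carry the measurement and the fold was at least 1.02 (adjusted p = 0.0320). Here and below, an "at least" fold sets liver to its lowest signal above background, or to the spot's own signal where higher. That bound is a convention and not a strict limit. The adjusted p beside such a fold belongs to the fitted difference from liver and does not test the bound. Mcm4 rose by 2.58 ± 0.25 and Mcm6 by 2.80 ± 0.24, both above background in liver (adjusted p = 0.0183 and 0.0314). Mcm5 rose at least 3.87-fold (adjusted p = 0.0357), and its second probe was called as well (adjusted p = 0.0429). The second Mcm6 probe was near background on all 5 arrays. Mcm7, whose liver spot was masked, gave 862 and 892 in C5F and C6, and 810 and 808 in N1 and L2, the narrowest spread of the helicase subunits measured in all 4 lines.

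Of the fork genes, which copy and join the strands, 2 of 4 tested members were called. Pcna, the sliding clamp, gave 12.3 in liver (near background), 136 and 68.2 in C5F and C6, and 132 and 111 in N1 and L2. The liver lay under every line and C6 under the other 3, and the fold against liver was at least 7.39 (adjusted p = 0.0355). Pold1, the catalytic subunit of polymerase delta, gave 63.2 in liver, 338 and 241 in C5F and C6, and 233 and 184 in N1 and L2, a difference of 1.94 ± 0.32 (adjusted p = 0.0398). Its probes did not give the same size: a second was called (adjusted p = 0.0308), while the third, near background in liver at 17.0 and at 13.6 to 27.2 in the lines, was not (adjusted p = 0.762). Lig1, the ligase that joins Okazaki fragments, read 140 in liver, 361 and 372 in C5F and C6, and 309 and 196 in N1 and L2. Every line was above liver, but the difference of 1.10 ± 0.34 did not pass the test (adjusted p = 0.112). Pola1, the catalytic subunit of polymerase alpha, stood close to background, at 10.4 in liver (near background) and 15.2 to 20.0 in the lines (adjusted p = 0.103). Fen1 had no usable spot in liver or N1 on its brightest probe and stood at 293 in C5F, 243 in C6 and 312 in L2.

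The nucleotide supply genes all rose where tested. Rrm1, the large subunit of ribonucleotide reductase, read 24.6 in liver, 134 and 134 in C5F and C6, and 138 and 132 in N1 and L2. Of the 23 members that passed the filter with usable spots in all 4 lines, it varied least between them, with a range of 0.070 on the log2 scale, and it stood 2.45 ± 0.19 above liver (adjusted p = 0.0139). Rrm2, the small subunit, whose supply is tied to S phase, was at the floor of 2.53 in liver and at 93.3 and 73.0 in C5F and C6, and 93.3 and 76.5 in N1 and L2, at least 5.71-fold higher (adjusted p = 0.00902). Tk1, thymidine kinase of the salvage route, also stood close to background, at 3.49 in liver (near background), 18.7 and 21.2 in C5F and C6, and 30.3 and 15.6 in N1 and L2, at least 1.42-fold higher (adjusted p = 0.0453). Ccne1, the cyclin that drives entry into S phase, was at the floor in liver and read 144 and 92.4 in C5F and C6, and 107 and 125 in N1 and L2, at least 7.90-fold higher (adjusted p = 0.0101). A dimmer Ccne1 probe was also called (adjusted p = 0.0328).

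In the mitotic entry group, all 3 tested members rose. Ccna2, cyclin A2, which serves both S phase and entry to mitosis, read 10.5 in liver (near background), 310 and 374 in C5F and C6, and 227 and 127 in N1 and L2. Liver lay far below all lines, at least 16.4-fold (adjusted p = 0.0171), and the lines themselves were spread more widely than for any other member that passed the filter with usable spots in all 4. Ccnb1, cyclin B1, read 26.4 in liver, 309 in C5F, 323 in C6 and 250 in L2, the N1 spot being unusable, a difference of 3.42 ± 0.24 (adjusted p = 0.0252). Aurka, the Aurora kinase of the spindle poles, read 12.2 in liver (near background), 130 and 137 in C5F and C6, and 115 and 97.5 in N1 and L2, at least 8.12-fold higher (adjusted p = 0.0105). Plk1, the polo kinase, was at 50.5 in liver, 416 in C5F and 375 in C6, and Aurkb, the Aurora kinase of the chromosomal passenger complex, at 26.02 in liver, 111 in C5F and 39.5 in L2, both without a test.

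Of the genes of the anaphase-promoting complex and the spindle checkpoint, all 3 tested members rose, and Cdc20 and Ube2c had the largest differences among tested members above background in liver. Cdc20, which activates the complex, gave 23.3 in liver, 339 and 297 in C5F and C6, and 297 and 350 in N1 and L2. The lines formed a tight group 3.78 ± 0.23 above liver, or 13.7-fold (adjusted p = 0.0100). Ube2c, its ubiquitin-conjugating enzyme, gave 28.8 in liver, 332 and 421 in C5F and C6, and 334 and 323 in N1 and L2, 12.2-fold higher (3.60 ± 0.24, adjusted p = 0.0105). Bub1, a checkpoint kinase at the kinetochore, was near background in liver at 9.03 and read 137 and 106 in C5F and C6, and 122 and 122 in N1 and L2, at least 8.30-fold higher (adjusted p = 0.0102). These were the only tested members of their 2 groups. Pttg1, securin, was near background in liver at 13.4 and read 115 in C5F and 107 in C6, and Bub1b, a checkpoint protein, was near background at 7.31 and read 80.6 in C5F and 109 in L2.

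Kinetochore and chromosome genes rose in 3 of 4 tests. Cenpf, a kinetochore protein of G2 and mitosis, read 30.1 in liver, 286 in C6, 233 in N1 and 297 in L2, with no usable spot in C5F, a difference of 3.19 ± 0.30 (adjusted p = 0.0342). Its dimmer probe, near background in liver and C6, was not called (adjusted p = 0.103). Top2a, the topoisomerase that untangles sister chromatids, read 109 in liver, 545 and 583 in C5F and C6, and 522 and 494 in N1 and L2. It had the smallest difference among the 6 tested mitotic members above background in liver, 2.30 ± 0.20 (adjusted p = 0.0155). Mki67, the Ki-67 antigen that coats mitotic chromosomes, was near background in liver at 18.1 and read 127 in C5F, 104 in N1 and 107 in L2, at least 6.20-fold higher (adjusted p = 0.0324). Cenpa, the histone variant of the centromere, read 5.72 in liver (near background), 27.4 and 17.8 in C5F and C6, and 22.0 and 14.2 in N1 and L2, at least 1.35-fold, and did not pass the test (adjusted p = 0.0717). Of the spindle and cytokinesis genes, Racgap1, a subunit of centralspindlin, read 29.2 in liver, 195 in C5F, 226 in N1 and 198 in L2, a difference of 2.80 ± 0.26 (adjusted p = 0.0336).

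**Figure D3:**
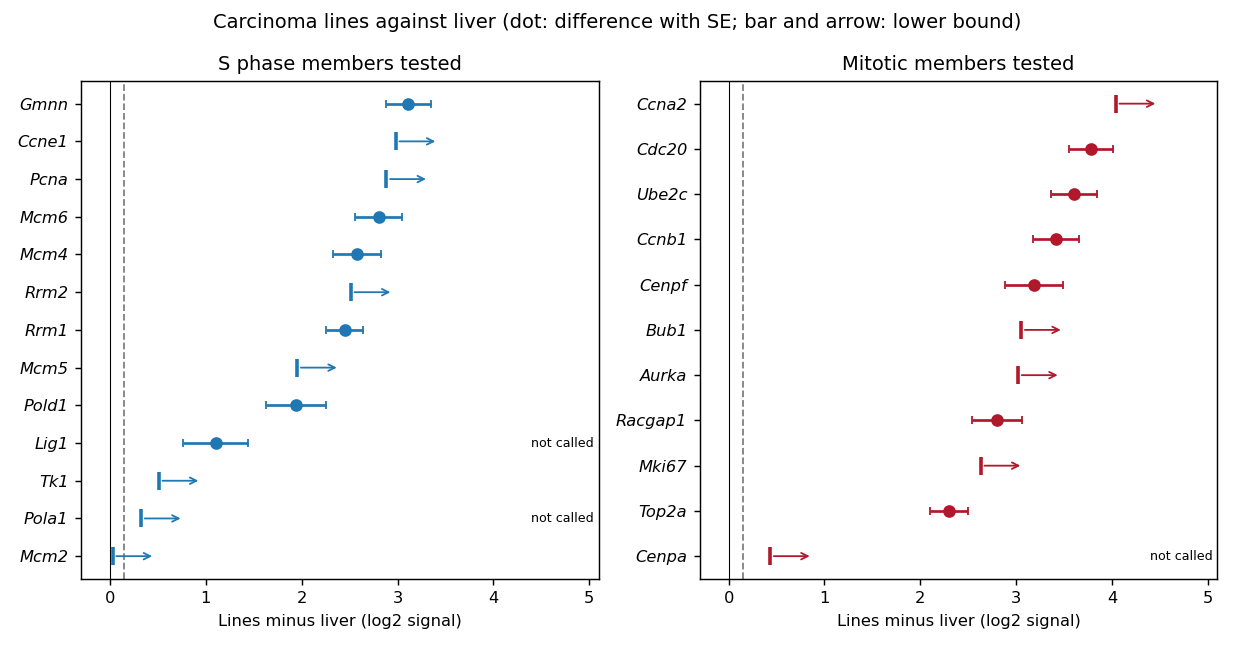
Difference between the lines and liver on the log2 scale for the 13 S phase and 11 mitotic members tested. Dots with bars are the limma difference and its SE. Vertical bars with arrows are lower bounds, set by convention, for members near background in liver. The dashed line is the median of all 11949 probes tested, 0.15, and Lig1, Pola1 and Cenpa were not called.

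Several mitotic genes lacked a liver value because the scanner software called the liver spot irregular. With irregular spots kept, 28 of 33 tested members were called higher, 16 of them mitotic, and 11% of all probes. Cdk1, the kinase of mitotic entry, then read 63.1 in liver and 603 to 1114 in the lines (3.65 ± 0.23, adjusted p = 0.0102). Birc5, survivin, a chromosomal passenger, stood 3.26 ± 0.25 above liver (adjusted p = 0.0139), and Prc1, which bundles the central spindle, 3.57 ± 0.24 (adjusted p = 0.0110). Plk1, Pttg1, Bub1b and Fen1 were called in this setting too (adjusted p = 0.0158, 0.0150, 0.0212 and 0.0438). Aurkb was not (1.55 ± 0.60, adjusted p = 0.156). The brightest probe of Mad2l1, a checkpoint protein, read 79.3 in liver and 65.4 to 87.5 in the lines, a difference of −0.055 ± 0.28 (adjusted p = 0.901). Its other probe, near background in liver at 2.67, read 15.9 in C5F, 32.2 in C6, 8.87 in N1 (near background) and 16.2 in L2 (adjusted p = 0.0674 with irregular spots left out), and neither probe was called.

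Set side by side, the mitotic members stood further above liver than the S phase members. The median difference was 3.28 on the log2 scale over 11 mitotic members and 2.58 over 13 S phase members, beside 0.15 over all probes tested. With members near background in liver set to their bound, the medians were 3.05 and 2.45. Over members above background in liver the medians were 3.30 for mitosis (6 members, 2.30 to 3.78) and 2.51 for S phase (6 members, 1.10 to 3.11), beside −0.27 over such probes. The groups overlapped, with Gmnn, Mcm6, Mcm4 and Rrm1 above Top2a, and Gmnn and Mcm6 also above Racgap1.

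The order of the medians was the same in each line. The S phase median lay under the mitotic median by 0.71 and 1.01 in C5F and C6, and by 0.60 and 0.72 in N1 and L2. Each line uses the same liver array, so these are not 4 independent readings, and genes are not replicates, so the difference between the phases was not tested. It was −0.79 over members above background in liver and −0.77 without Ccna2, Gmnn, Top2a, Mki67 and Ccne1, whose action or expression spans phases.

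Between the high- and low-metastatic lines, no member was called. Of 30 members tested, 0 passed limma's adjusted p, as 0 of all 13741 probes did (0%), and 1 had an unadjusted p under 0.05, against 7.31% of all probes. The median difference, high minus low, was −0.065 over 15 S phase members and −0.12 over 15 mitotic members. That 1 member was Cdk1, at 600 and 651 in C5F and C6, and 905 and 1123 in N1 and L2. Both high-metastatic lines lay above both low-metastatic ones, by 0.69 ± 0.21 on the log2 scale (unadjusted p = 0.0390 from limma, adjusted p = 0.670). A second Cdk1 probe kept the order, with 444 and 425 in C5F and C6, and 529 and 634 in N1 and L2.

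Of the 23 members that passed the filter and had usable spots in all 4 lines, Cdk1 was the only 1 with both high-metastatic lines on top (17.5% of all probes). The reverse held for 7, namely Aurka, Ccna2, Lig1, Mcm7, Pola1, Pold1 and Top2a (19.2% of all probes). Ccna2 differed most, by −1.002 ± 0.38 (adjusted p = 0.687), and Lig1 by −0.57 ± 0.30 (adjusted p = 0.752). Ccna2, Aurka and Cdk1 belong to the same step of the cycle, and Cdk1 lay on the other side from its partner cyclin A2. With 2 lines per class the spread within a class is known from 2 values only.

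The lines were also set against each other singly. Likewise 0 members passed limma's adjusted test of 1 line against the other 3, with 29 tested for C5F, 27 for C6, 28 for N1 and 29 for L2, and 0% of all probes passed in each. At an unadjusted p under 0.05 there were 0 members for C5F (5.61% of all probes), 1 for C6 (3.55%), 0 for N1 (5.56%) and 2 for L2 (10.1%). For C6 it was Pcna, at −0.89 ± 0.25 against the other lines (limma unadjusted p = 0.0308). For L2 they were Ccna2, at −1.23 ± 0.37, and Lig1, at −0.82 ± 0.21 (limma unadjusted p = 0.0387 and 0.0255). L2 had the lowest signal for all 3 of Ccna2, Lig1 and Pold1.

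By rank over the 4 lines, C5F was highest for 7 of the 23 members, among them Pcna, Ccne1 and Bub1, C6 for 8, among them Top2a and Ube2c, N1 for 3, the nucleotide genes Rrm1, Rrm2 and Tk1, and L2 for 5, among them Cdc20 and Birc5. Over all probes the shares were 23% for C5F, 23.2% for C6, 28.9% for N1 and 23.6% for L2. C5F was lowest for 2 members, C6 for 5, N1 for 5 and L2 for 11, beside 23%, 19.4%, 18% and 32.2% of all probes. Some of these ranks separate lines that hardly differ: Rrm1, for example, spanned 132 to 138, and Rrm2 read 93.3 in both N1 and C5F. With irregular spots kept, C5F and not N1 was highest for Rrm1 and Rrm2. The dimmer Tk1 probe, which did not pass the filter, was highest in C6.

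The spread between the lines was small for most members. The median range from the lowest to the highest line was 0.50 on the log2 scale over 12 S phase members and 0.38 over 11 mitotic members, beside 0.85 over all 9352 probes measured in the 4 lines. Where all 4 lines stood above background, it was 0.39 for S phase, 0.38 for mitosis and 0.65 for all 5326 probes. Ccna2 alone of 23 members spanned at least 2-fold, against 40.8% of all probes, and 1 of 22 did among those above background in all 4 lines, against 23.2%. Pcna, Tk1, Cenpa, Lig1 and Cdk1 came next, with ranges of 0.99, 0.96, 0.95, 0.93 and 0.91. The 3 widest mitotic ranges belonged to Ccna2, Cenpa and Cdk1. Birc5 read 767 to 1003 over the lines and Prc1 594 to 720. Outside these 23, Aurkb read 111 in C5F and 39.5 in L2, and its range over the 4 lines was 1.47 with irregular spots kept. Dimmer probes of Mad2l1, Cenpf and Ccne1 that passed the filter also spanned over 2-fold (1.86, 1.65 and 1.18). Each of these was near background in at least 1 line.

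**Figure D4:**
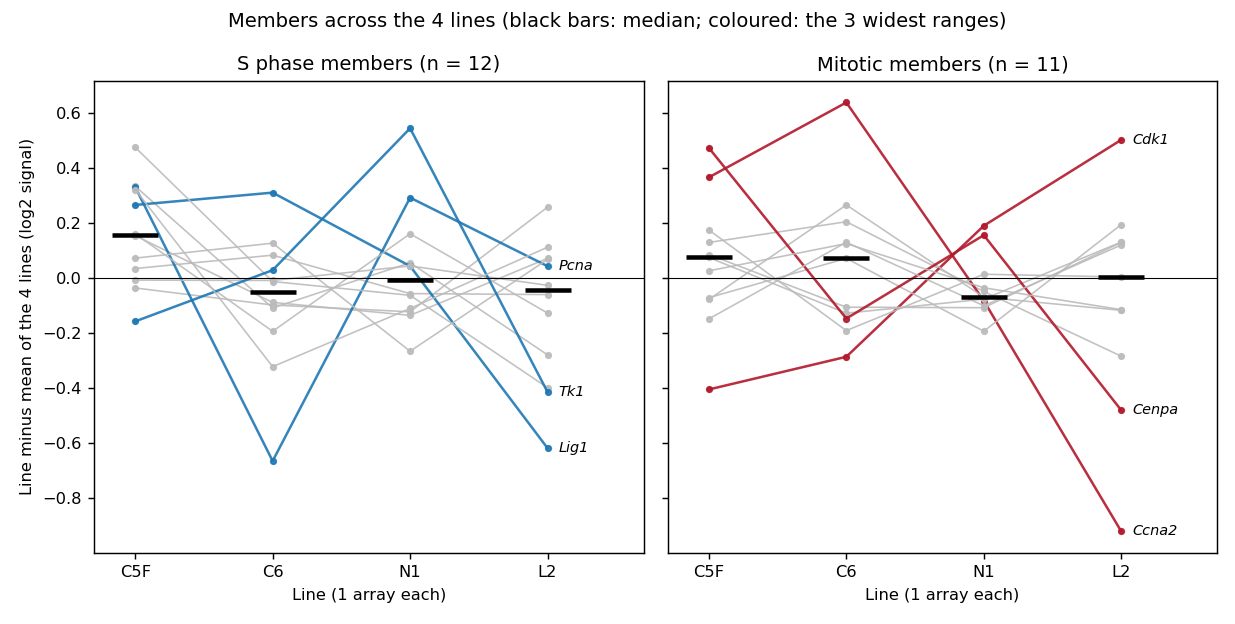
Signal of each line minus the mean of the 4 lines on the log2 scale, for 12 S phase and 11 mitotic members usable in all 4 lines, with 1 line of points per member and black bars at the median. The 3 members with the widest range in each phase are coloured. Pcna is low in C6 and Lig1 is low in L2. Tk1 is high in N1 and low in L2, Ccna2 high in C6 and low in L2, and Cenpa high in C5F and low in L2. Cdk1 is high in L2 and low in C5F.

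The medians were also taken line by line. Relative to the mean of the lines, the S phase median was 0.16 and −0.051 in C5F and C6, and −0.0068 and −0.044 in N1 and L2, and the mitotic median 0.074, 0.071, −0.070 and 0.0036 in the same order.

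Other genes of the same processes were read from lists that hold none of the members but were also chosen with earlier results of these data known. Of 52 other replication genes, 41 were on the array and 24 were tested, of which 14 rose and 0 fell (9.01% and 9.38% of all probes), with a median difference of 2.08. The largest fitted differences were those of Clspn (claspin, at the fork), Dbf4 (the activator of the Cdc7 kinase) and Gins4 (a helicase cofactor). Clspn and Dbf4 were near background in liver, at 9.04 and the floor of 2.53, and rose at least 5.48-fold and 1.47-fold. Gins4 stood above background in liver at 19.0 and read 133 to 153 in the lines (2.92 ± 0.21, adjusted p = 0.0118). Pole2, a subunit of polymerase epsilon, Rfc1, of the clamp loader, and Pold3, of polymerase delta, had differences of −0.021, −0.46 and −0.68 and were not called (adjusted p = 0.962, 0.184 and 0.180).

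Of 55 other mitotic genes, 38 were on the array and 21 were tested, of which 15 rose and 0 fell (9.01% and 9.38% of all probes), with a median of 2.40. Ncapg, a condensin subunit, rose at least 4.85-fold, Cep55, which acts at abscission, at least 7.28-fold, and Cks2, a Cdk1-binding protein, at least 2.55-fold (adjusted p = 0.0230, 0.0246 and 0.0265). These had the largest fitted differences, each with liver near background. Ect2, the RhoA activator of cytokinesis, and the centromere genes Cenpn and Cenpm were lowest and not called (adjusted p = 0.811, 0.939 and 0.209). Over those above background in liver, 7 of 10 mitotic and 9 of 17 replication genes were called higher, against 3.37% of such probes. In the comparison of the classes, 0 of 29 and 0 of 26 tested passed limma's adjusted p, with 0 and 2 at an unadjusted p under 0.05, where 7.31% of all probes lay.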

How the data were processed

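Per the file headers, the deposited raw intensity of each spot was quantified by the authors with CodeLink Expression Analysis, background already subtracted. Controls were dropped, irregular, contaminated or masked spots were treated as missing, and raw intensities were quantile normalised between the 5 arrays (limma 3.58.1, R 4.3.3, statmod 1.5.0, and data.table in version 1.17.8), floored at 2.53 and taken to log2. The filter kept 16377 probes, those above background in liver or in 2 or more lines. Symbols came from the platform annotation, updated through Entrez numbers (16836 of 16865 matched).

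All 5 arrays entered a limma model with liver and the 2 metastatic classes as groups, and further models set each line against the other 3. Tests were two-sided, adjusted by Benjamini and Hochberg over all probes tested, with a threshold of 0.05. Probes whose missing spots left no residual degrees of freedom have no test. The procedure was also run on simulated data with equal noise on every probe and array, liver included. Such data cannot test the assumption that the lone liver varies as the lines do. "At least" folds set liver to 14.6, the lowest signal above background there, or to the spot's own signal where that was higher. Some liver spots near background read above 14.6, such as Mki67 at 18.1. These folds are therefore bounds by convention and not strict limits. The adjusted p beside such a fold is that of the fitted difference, which uses the floored liver signal, and not of the bound.

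Members, lists and phases were chosen with earlier results of these data known. The brightest probe stood for a gene. Described in full were the members with the largest and smallest difference in each role and the widest range over lines, and of each other list the 3 largest and 3 lowest differences. Alternatives covered scaling, the deposited normalized intensity, the floor, irregular spots, the filter, probe choice, the variance model and leaving out each line. The p-values rest on the spread between lines only, moderated by limma over the probes fitted, and 5 arrays limit every precision.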

Additional observations from a re-analysis of the deposited data

How the results depend on the processing

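No paired analysis was possible because each array holds a different source and the labels pair none of them. The 21 members called higher than liver became 0 to 6 with 1 line left out (6 without N1 or L2), where 19 to 21 were tested, all with a positive difference, and the calls over all probes fell as well, from 1077 higher and 1121 lower to 0 and 0 (without C5F or C6), 114 and 476 (without N1) or 132 and 485 (without L2). Fewer samples leave fewer degrees of freedom there. Under the other alternatives the count was 14 of 29 without the filter on dim probes (2.17% of all probes) and 18 of 24 with an offset of 50 (5.2%). It was 19 to 21 of 24 under other scalings or variance models (6.01% to 9.67%) and 28 of 33 with irregular spots kept (11%). Over every probe of a member it was 24 of 31 (9.01%). Counts of members lower than liver, or called between classes or lines, were 0 under each alternative run. The S phase minus mitotic median, −0.70, was −0.53 with an offset of 50, −0.42 without the filter, and −1.13 to −0.67 with 1 line left out. The cause was not tested. No tested member changed sign against liver. Mcm2 and Tk1 each kept their call in only 4 of 11 alternatives, and Pcna in 5 of 11, leaving out each line included. Lower bounds near background limit 12 of 24 members.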

Other observations

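A list of cell cycle regulators held transcription factors, pocket proteins and kinases that act on the members. Of 27 genes 20 were on the array and 12 were tested, of which 1 rose and 0 fell (limma, adjusted over all probes), near the 9.01% called higher over all probes, with a median difference of 0.47 on the log2 scale. The 1 called was Tfdp1, the dimer partner of E2F factors, near background in liver at 15.7 and at 85.7 in C5F, 73.9 in C6 and 133 in N1, at least 5.99-fold higher (adjusted p = 0.0353). Among the 11 above background in liver, limma called 0 higher, against 3.37% of such probes. The largest differences among these 11 were those of Cdc25a and Mybl2. Cdc25a, a phosphatase of S phase entry, differed by 1.43 ± 0.40 (adjusted p = 0.0955) and Mybl2, B-Myb, by 1.35 ± 0.28 (adjusted p = 0.0889).

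E2f1 read 29.6 in liver, with 26.6 in C6 and 35.5 and 22.95 in N1 and L2, a difference of −0.10 ± 0.41 (adjusted p = 0.873). Foxm1, a factor of mitotic gene expression, read 23.0 in liver, 33.9 in C5F, 50.3 in N1 and 29.5 in L2 (0.65 ± 0.47, adjusted p = 0.411). The lowest differences were those of Pkmyt1, which restrains Cdk1, at −0.25, of the retinoblastoma gene Rb1, at −0.60, and of Tfdp2, at −1.21, none of them called (adjusted p = 0.529, 0.734 and 0.621). Transcript levels of a regulator do not measure its activity.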
